A study of Mus musculus with 4 samples.

Results

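The cells described here are fibroblasts of the intestinal villus, taken from mice that had lost LATS1/2 in stromal cells for 1 week, which were low in 2 YAP/TAZ target genes and high in 3 immediate early genes. A cell was a member if it held a UMI of Adamdec1, if it held UMIs of at most 2 of the 6 submucosal fibroblast (FB4) markers Ackr4, Grem1, Cilp, Scara5, Pcolce2 and Lbp, and of at most 1 gene in each of 3 further groups. These groups were the subepithelial fibroblast (FB5) markers Sox6, Bmp5 and Wif1, the mural and smooth muscle markers Rgs5, Vtn, Actg2 and Cnn1, and the vFB3 markers Tacr1, Itga8 and P2rx1. The cells that met these conditions were called villus fibroblasts. In members, Vegfc and Amotl2 together also made up at most 1, and Fos, Fosb and Egr1 together at least 15, of each 10000 UMIs of the cell. A UMI (unique molecular identifier) is 1 captured RNA molecule. Of the 4108 cells in the matrix, 2582 were villus fibroblasts and 407 were members, which is 9.91% of all cells (9.01–10.9) and 15.8% of villus fibroblasts (14.4–17.2). Ranges in parentheses after a share, level or ratio are exact 95% intervals and cover counting error only.

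The series holds 4 droplet single-cell 3′ libraries of sorted stromal cells of the small intestine of adult C57BL/6J mice, of which 2 are from WT mice, 1 from KO mice at 1 week and 1 from KO mice at 2 weeks. Only the KO library of 1 week was analysed here, so no comparison with WT was made. Its cells carried the tamoxifen-inducible Pdgfrb-CreERT2 driver, a tdTomato reporter of recombination, and floxed alleles of both genes (Lats1 f/f Lats2 f/f). The driver acts in every cell that makes PDGFRβ, so the alleles could be deleted in mural cells as well as in fibroblasts, and all 4 sets compared below come from the same floxed mice. As all values come from 1 library and cells are not replicates, there is no test, no p-value and no standard error below. A ratio compares the cells of this library, not conditions, and its interval does not cover differences between animals. Whether the floxed exons were lost cannot be read from 3′ tags. Lats2 was at 40.0 CPM (34.1–46.7) in the members, where CPM is UMIs of the gene per 1000000 UMIs summed over the cells of a set.

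LATS1 and LATS2 are the kinases at the end of the Hippo pathway. They phosphorylate the coactivators YAP and TAZ and keep them out of the nucleus, where, with TEAD factors, they would activate genes such as Cyr61, Ctgf and Amotl2. Vegfc, a growth factor of lymphatic vessels, is the gene the study followed in these fibroblasts. Immediate early genes such as Fos, Fosb and Egr1 need no new protein for their induction. Serum factors, stress and mechanical stimuli switch them on within minutes through factors already present in the cell, which bind serum response elements and cyclic AMP response elements (CRE). NF-κB works in a similar way, being held in the cytoplasm until a signal frees it, and it switches on its own inhibitors along with chemokine genes.

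The letters that these factors read can be shown for 5 genes of the report. Below are the 250 bases upstream of the RefSeq start in the build GRCm38.p6, 5′ to 3′ on the strand of the gene, with positions counted back from the start. In Fos (chr12:85473640-85473889, plus strand) the capitals mark the CRE half-site TGACG at positions -129 to -125 and -66 to -62, in Fosb (chr7:19310046-19310295, minus strand) at -60 to -56, and in Atf3 (chr1:191183334-191183583, minus strand) the same site read on the other strand at -7 to -3. In Btg2 (chr1:134079156-134079405, minus strand) they mark the full element TGACGTCA at -166 to -159. In Cxcl10 (chr5:92348890-92349139, minus strand), a chemokine taken as a marker of these cells from earlier results and not used in the selection, they mark from left to right an interferon element read on the other strand (-213 to -204), an NF-κB site (-159 to -150), a further NF-κB site (-103 to -94) and the AP-1 site TGAGTCA (-74 to -68).
Fos: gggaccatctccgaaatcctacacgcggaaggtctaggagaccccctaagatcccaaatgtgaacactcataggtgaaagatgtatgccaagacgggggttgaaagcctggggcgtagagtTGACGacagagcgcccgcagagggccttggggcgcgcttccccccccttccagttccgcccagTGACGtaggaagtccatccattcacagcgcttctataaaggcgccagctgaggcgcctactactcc
Fosb: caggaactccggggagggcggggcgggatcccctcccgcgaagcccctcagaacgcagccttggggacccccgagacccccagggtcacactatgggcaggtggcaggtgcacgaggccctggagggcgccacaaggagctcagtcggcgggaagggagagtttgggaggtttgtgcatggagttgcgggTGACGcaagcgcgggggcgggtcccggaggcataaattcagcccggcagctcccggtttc
Atf3: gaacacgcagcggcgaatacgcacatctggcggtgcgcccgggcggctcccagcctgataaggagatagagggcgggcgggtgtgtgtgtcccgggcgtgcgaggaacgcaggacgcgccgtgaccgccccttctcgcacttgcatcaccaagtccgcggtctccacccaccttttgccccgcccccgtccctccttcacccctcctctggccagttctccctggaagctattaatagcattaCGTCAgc
Btg2: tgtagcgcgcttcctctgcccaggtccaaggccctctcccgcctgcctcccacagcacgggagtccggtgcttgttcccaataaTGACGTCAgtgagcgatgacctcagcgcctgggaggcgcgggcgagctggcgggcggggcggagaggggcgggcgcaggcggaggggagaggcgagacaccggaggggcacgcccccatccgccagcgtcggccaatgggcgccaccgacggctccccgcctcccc
Cxcl10: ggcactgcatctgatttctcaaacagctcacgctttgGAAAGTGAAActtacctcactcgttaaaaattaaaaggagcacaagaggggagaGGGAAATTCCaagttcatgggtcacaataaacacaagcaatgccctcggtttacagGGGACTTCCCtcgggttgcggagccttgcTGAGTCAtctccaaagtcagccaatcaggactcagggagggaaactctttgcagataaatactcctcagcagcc

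Searched on both strands from 250 bases before to 50 bases after the start, the half-site TGACG was in 14 of the 24 immediate early genes that had a promoter in the RefSeq table, out of 32 listed with the 3 genes of the selection, in 4 of the 8 heat shock genes with one, and in 21% of all 27025 promoters. It includes the full element TGACGTCA, which was in Dusp1 and Btg2 among these genes and in 1.88% of all promoters. The AP-1 site (TGACTCA or TGAGTCA), which Fos and Jun proteins bind, was in 0 of the 24 and in 5.17% of all promoters. The serum response element (CArG box) was in 2 of the 24, Zfp36 and Srf, and in 1.57% of all promoters. An element further upstream than 250 bases would not be seen, so a gene without a match may still hold one. The NF-κB site was in 7 of the 11 NF-κB feedback genes with a promoter, in 5 of the 24 immediate early genes and in 4.35% of all promoters. Of these 5, Fos (-214 to -205) and Fosb (-188 to -179) hold it on the other strand, outside the capitals of the printed sequences. The TEAD core GGAATG was in 8 of 17 YAP/TAZ target genes and in 14.6% of all promoters. These matches are a description of letters in a window. Egr1 and Adamts4 are named without a sequence.

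The members were set beside the 3 other sets of villus fibroblasts that the same 2 limits make. YAP-target-low, IEG-low cells (542) differ from the members by the limit on immediate early genes (IEG), YAP-target-high, IEG-high cells (649) by the limit on Vegfc and Amotl2, and YAP-target-high, IEG-low cells (984) by both. The sum of Fos, Fosb and Egr1 had a median of 49.1 per 10000 UMIs in the members, with a range of 15.3 to 185, and of 1.13 in YAP-target-low, IEG-low cells. These values chose the cells and are a description only. Fos, a subunit of the transcription factor AP-1, was at 2747 CPM (2696–2799) in the members, 125 CPM in YAP-target-low, IEG-low cells, 2482 CPM in YAP-target-high, IEG-high cells and 112 CPM in YAP-target-high, IEG-low cells. Its relative Fosb stood at 600.1 CPM against 22.2, 621 and 27.9 CPM in the same order of sets, which is kept below. The zinc finger factor Egr1 stood at 2016 against 148, 1826 and 118 CPM. Vegfc was at 8.20 against 8.90, 181 and 210.1 CPM, and Amotl2, a junction protein that binds YAP, at 14.9 against 10.4, 237 and 194 CPM. High IEG cells were 42.9% (39.7–46.1) of the 949 YAP-target-low and 39.7% (37.4–42.2) of the 1633 YAP-target-high villus fibroblasts, so the shares lay close together.

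**Figure D1:**
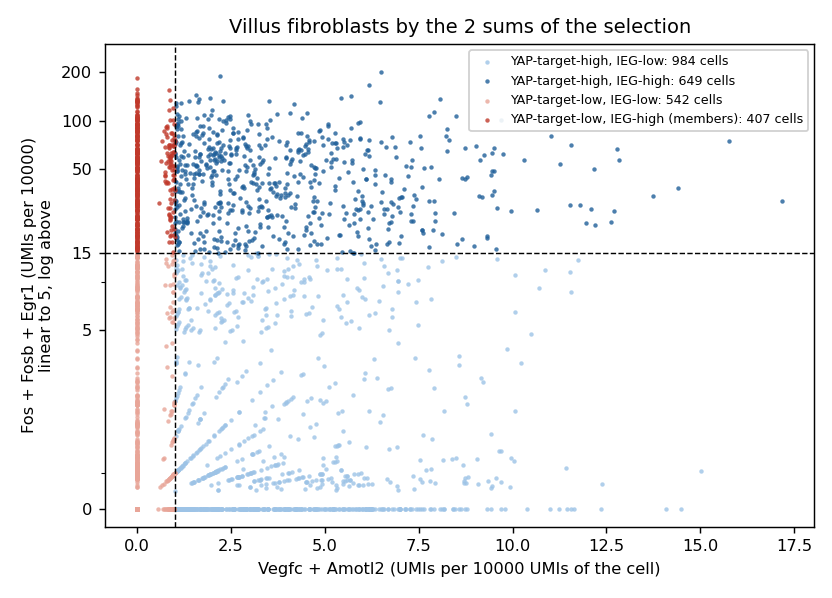
Villus fibroblasts of the KO library of 1 week, 1 point a cell, by the sum of Vegfc and Amotl2 (x axis) and the sum of Fos, Fosb and Egr1 (y axis, linear to 5 and logarithmic above), both in UMIs per 10000 UMIs of the cell. Dashed lines are the limits of 1 and 15; the 407 members fill the upper left corner, and 315 of them lie at 0 on the x axis.

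The limit on Vegfc and Amotl2 acted mostly as a demand for no molecule. No UMI of either gene was seen in 315 members (77.4%), and the other 92 held 1 or 2. In the 196 members (48.2%) with fewer than 10000 UMIs a single UMI would have exceeded the limit. The members had a median of 10046 UMIs (2711 to 22600), 3214 genes and 4.82% mitochondrial UMIs. Median UMIs were 9536.5 in YAP-target-low, IEG-low cells, 10779 in YAP-target-high, IEG-high cells and 10784.5 in YAP-target-high, IEG-low cells, and median mitochondrial shares were 5.27%, 4.68% and 5.11%. YAP-target-low cells were thus the shallower ones, and depth and a low level of Vegfc and Amotl2 cannot be fully told apart in single cells. The cells just inside and just outside the limits gave the following values. In the 41 YAP-target-low cells with a sum of 15 to 20, Junb was at 1041 CPM, Cxcl10 at 39.7 CPM, Adamts4 at 156 CPM and Ogn at 67.1 CPM. In the 50 cells with a sum of 10 to 15 they were at 1102, 31.9, 113 and 113 CPM. At the other limit, Ogn was at 139.7 CPM and Cxcl10 at 239 CPM in the 92 members with a UMI of Vegfc or Amotl2 and at 268 and 109 CPM in the 171 IEG-high cells with a sum above 1 and up to 2.

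The label of villus fibroblast was set against marker genes. Adamdec1, a protease of mucosal fibroblasts on which the selection rested, was at 5207 CPM in the members and 871 CPM in the 943 cells of the FB4 gate. It was at 4168 CPM in the 293 cells of the muscle and mural gate, which held 2 or more of that group's 4 markers. The gates set no condition on Adamdec1 and can share cells, so their names tell which markers the cells held and not their type. Of the villus markers of the study, Serpina3n stood at 247 CPM in the members, 237 CPM in the FB4 gate and 39.9 CPM in the FB5 gate, and Shisa3 at 87.0, 126 and 16.3 CPM, so neither set the members apart from FB4. Pdgfrb, the gene of the driver, which was picked after its values were seen, had UMIs in all 407 members at 342 CPM. A trace of FB4 was within the rule, as 150 members held 1 FB4 marker and 67 held 2. The summed level of the 6 FB4 markers was 156 CPM in the members and 126, 161 and 97.3 CPM in the other sets. Rgs5, a pericyte gene in many tissues, had UMIs in 379 members (93.1%) at 757 CPM and was at 1004 CPM in the muscle and mural gate. Vtn and Cnn1 were at 0 in the members, which the rule largely fixed, as it allowed 1 gene of that group and most members held Rgs5. Summed immune markers were at 35.5 CPM in the members, with 46.2, 43.3 and 50.7 CPM in the other sets. The 6 endothelial markers, 5 of them at 0, and the 6 epithelial markers, 4 of them at 0, each summed to 0.497 CPM. Mural markers, most of it Rgs5, summed to 763 CPM against 493, 795 and 491 CPM, and so were higher in both IEG-high sets. Smooth muscle markers summed to 74.3 against 89.4, 64.1 and 64.6 CPM.

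Genes outside the selection were then compared with YAP-target-low, IEG-low cells, which share the limit on Vegfc and Amotl2. A gene entered with at least 200 UMIs over both sets, and it was counted as higher or lower at a 2-fold difference in CPM. Of 5744 genes, 120 (2.09%) were at least 2-fold higher and 19 (0.331%) at most 0.5 times as high in the members, and the median ratio over all genes was 0.994. Since the limit on Fos, Fosb and Egr1 divided these cells, genes that vary with them from cell to cell had to differ, and the counts support nothing beyond that description. With every cell thinned to 5000 UMIs before the selection, which also changed the members and left 4272 genes with enough UMIs, 78 genes (1.83%) were higher, 75 of them among the 120. Of the 29 immediate early genes outside the rule, 20 had enough UMIs, of which 14 were at least 2-fold higher and 0 lower, with a median ratio of 4.65. The other AP-1 subunits differed among themselves. Junb was at 1676 CPM (1636–1716) in the members and 325, 1439 and 258 CPM in the other sets, a ratio to the YAP-target-low, IEG-low cells of 5.16 (4.89–5.45). For Jun the values were 1208, 211, 944 and 136 CPM (ratio 5.72, 5.36–6.12), but the ratio was 1.64 (1.57–1.71) for Jund and 1.52 (1.22–1.90) for Fosl2. Both sets low in IEG lay together below both sets high in IEG for Junb and Jun.

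Among stress and feedback genes of this class, the ratio was largest for Atf3, a transcription factor of the stress response, at 113 CPM (102–123) against 6.77, 118 and 3.71 CPM (ratio 16.6, 11.8–24.2). Ier3 followed at 298 against 21.9 CPM (ratio 13.6, 11.2–16.7). Btg2, which restrains proliferation and whose promoter with a full CRE is printed above, was at 1342, 143, 1070.4 and 111 CPM (ratio 9.38, 8.68–10.1). The orphan nuclear receptors Nr4a1 and Nr4a2 had ratios of 7.73 (6.50–9.25) and 6.09 (4.27–8.88). Zfp36, which marks AU-rich mRNAs for decay, was at 431 against 67.1 CPM (ratio 6.43, 5.73–7.23), and Dusp1, a phosphatase of stress kinases, at 469 against 93.0 CPM (ratio 5.04, 4.56–5.58). Gadd45b stood at 1257 against 205 CPM (ratio 6.14, 5.75–6.57) and its relative Gadd45g at 512 against 77.9 CPM. Within the 20 genes, Klf2 (0.954, 0.893–1.02), Klf6 (1.35, 1.21–1.501), Cebpb (1.26, 1.17–1.35) and Cebpd (0.910, 0.887–0.935) stayed below 2-fold, so the difference did not extend to every gene of the list. Egr2 and Egr3, relatives of Egr1, had too few UMIs for the list and stood at 28.3 and 20.6 CPM in the members against 4.06 and 1.35 CPM. The largest of the ranked ratios, 121 (40.9–589), belonged to Gm26802, a non-coding RNA that lies 1926 bases downstream of Fosb on the same strand, and its UMIs cannot be told apart from reads that run on from Fosb.

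**Figure D2:**
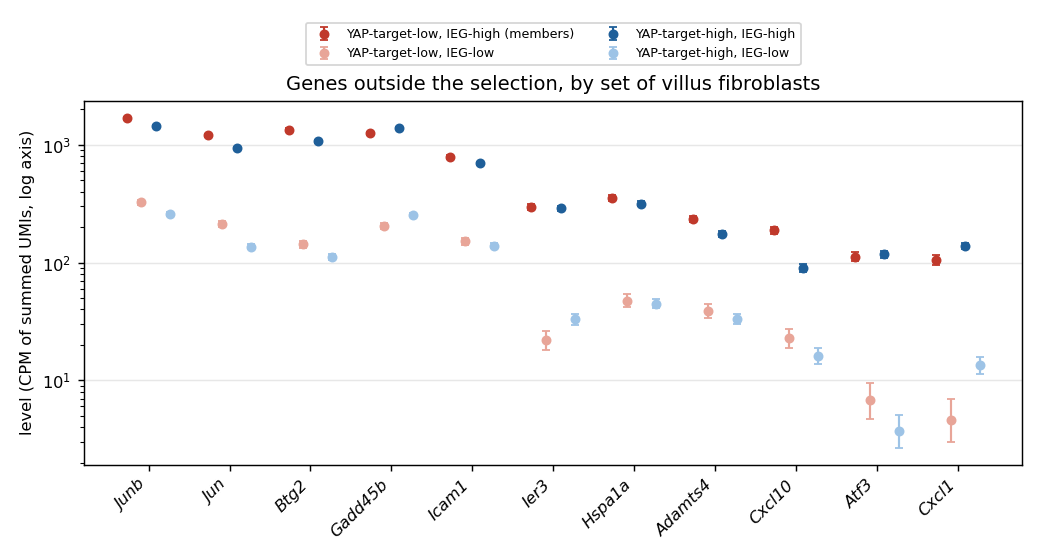
Level of 11 genes outside the selection (x axis) in the 4 sets of villus fibroblasts, in CPM of summed UMIs on a log axis, with exact 95% intervals of counting error. Both IEG-high sets lie above both IEG-low sets for each of the 11 genes, and Cxcl10 is the one with the widest gap between the IEG-high sets (188 against 89.5 CPM).

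Of the 8 heat shock genes with enough UMIs, 5 were at least 2-fold higher. Hspa1a and Hspa1b, near-identical copies of the inducible HSP70 whose reads can be split between them, had ratios of 7.46 (6.51–8.58) and 5.88 (4.67–7.47), Dnajb1 2.83 (2.33–3.44) and Hsp90aa1 2.53 (2.33–2.74). Tissue digestion before a sort is a known stimulus of heat shock and immediate early genes alike, and its part in these levels was not tested. For its cluster vFB1, which was high in Junb and Fosb, the paper allows for this artefact. It also reports PDGFRβ+ Fosb+ cells seen in vivo without dissociation. Whether the members correspond to vFB1 was not tested. The mitochondrial chaperones Hspe1 and Hspd1 had 0.861 (0.790–0.938) and 1.06 (0.924–1.22). Of the 9 NF-κB feedback genes, 7 were at least 2-fold higher, with a median ratio of 2.997. Nfkbia, the inhibitor that NF-κB makes of itself, was at 815, 272, 689.7 and 219 CPM (ratio 2.997, 2.81–3.19), and Nfkbiz, a nuclear cofactor, at 63.6 against 6.00 CPM (ratio 10.6, 7.29–15.9). The adhesion molecule Icam1 stood at 787 against 152 CPM (ratio 5.17, 4.78–5.60), whereas Vcam1 stood at 121 against 134 CPM (ratio 0.906, 0.805–1.02). Of the 6 measured ERK feedback genes, 0 passed 2-fold in either direction, which is near the background of 2.09% higher and 0.331% lower genes, and their median ratio was 1.01. Among them were Dusp6 (0.944, 0.747–1.19), Spry1 (0.698, 0.583–0.832) and Spry2 (1.03, 0.867–1.21), while Dusp5, at 11.4 against 0.193 CPM, had too few UMIs to enter.

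Chemokines split in both directions. Of 9 with enough UMIs, 3 were at least 2-fold higher in the members, 2 at most 0.5 times as high and 4 in between, where 2.09% of all genes were higher and 0.331% lower. Cxcl10, which attracts T cells through CXCR3, was at 188 CPM (174–201) in the members, 22.8 CPM (18.9–27.3) in YAP-target-low, IEG-low cells, 89.5 CPM (82.7–96.7) in YAP-target-high, IEG-high cells and 16.1 CPM (13.8–18.7) in YAP-target-high, IEG-low cells. The members lay highest and the 2 IEG-low sets lowest, with a ratio to the nearest IEG-low set of 8.22 (6.76–10.1). In the other gates of the library Cxcl10 was at 67.0 CPM in FB4, 16.9 CPM in FB5, 65.0 CPM in the muscle and mural gate and 90.7 CPM in the 84 cells of the vFB3 gate. Cxcl1, a neutrophil attractant, stood at 106, 4.64, 138 and 13.5 CPM, and the monocyte attractant Ccl2 at 93.7, 13.3, 174 and 13.8 CPM. Ccl2 was higher in the YAP-target-high, IEG-high cells than in the members, with a ratio of 0.538 (0.478–0.605). For Cxcl1 the same ratio was above 1 among the M and below 1 among the F columns of the matrix, at 1.26 (1.07–1.49) and 0.522 (0.439–0.619). The 2 chemokines on the lower side were Cxcl14 at 37.3 against 106 CPM (ratio 0.351, 0.291–0.421) and Ccl8 at 17.1 against 36.4 CPM (ratio 0.472, 0.353–0.625). Ccl11, an eosinophil attractant and, after Cxcl12, the most abundant chemokine of the members, was at 923 against 1774 CPM (ratio 0.520, 0.501–0.541).

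Of the 20 measured interferon response genes, 0 differed 2-fold between the members and YAP-target-low, IEG-low cells, and their median ratio was 0.887. With 2.09% of all genes higher and 0.331% lower, 0 of 20 is near the background. Against YAP-target-high, IEG-high cells 1 of 20 was at most 0.5 times as high and 0 were 2-fold higher, beside 1.34% and 0.321% of all genes. It was Ifit2, at 13.7 against 28.9 CPM (ratio 0.473, 0.345–0.640). In the comparison with YAP-target-low, IEG-low cells, Isg15, a ubiquitin-like protein, was at 40.5 against 56.3 CPM (ratio 0.720, 0.590–0.875). Ifit3 was at 20.4 against 29.8 CPM (ratio 0.684, 0.517–0.900) in the same comparison, which also holds for the genes that follow. Irf1, an interferon-induced factor that stands in the NF-κB list, was at 196 against 55.3 CPM (ratio 3.54, 3.09–4.07). Of the 6 cytokine genes that entered none differed 2-fold. The inflammatory cytokine Il6 fell short of the UMI minimum and was at 39.0 against 2.90 CPM, with UMIs in 17.9% of members.

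Proteases and their inhibitors held some of the largest ratios. Adamts4, a protease that cuts aggrecan and versican and, like Cxcl10, a marker taken from earlier results (chr1:171250421-171260637, plus strand, GRCm38), was at 236 CPM (221–251) in the members and 38.9, 175 and 33.2 CPM in the other sets (ratio 6.06, 5.20–7.09). In the other gates it stood at 64.1 CPM in FB4, 127 CPM in FB5, 94.4 CPM in the muscle and mural gate and 38.0 CPM in vFB3. Its relative Adamts1 was at 279.8 against 116 CPM (ratio 2.41, 2.18–2.66). Has1, a hyaluronan synthase, was also among the higher genes. Of 17 measured genes of this list, 4 were higher and 1, Mmp10, was lower, beside 2.09% and 0.331% of all genes. Of the 17 collagen and matrix genes 0 passed 2-fold, which is near that background, with Col1a1 at 2910.5 against 2377 CPM (ratio 1.22, 1.19–1.26), Lum at 1.18 (1.14–1.22) and the largest ratio at 1.64 for Tnc. Ptgs2, the inducible cyclooxygenase, stood at 78.8 against 6.38 CPM (ratio 12.3, 8.61–18.2), and the cell cycle inhibitor Cdkn1a at 96.9 against 13.9 CPM (ratio 6.96, 5.401–9.08).

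The 19 lower genes included Acta2, Tagln, Myl9 and Agt. Acta2, smooth muscle actin, was at 123 CPM (113–135) in the members and 402, 258 and 482 CPM in the other sets (ratio 0.307, 0.277–0.338). Tagln and Myl9, an actin-binding protein and a myosin light chain, had ratios of 0.427 (0.375–0.484) and 0.427 (0.374–0.486), and the LIM proteins Pdlim3 and Fhl2 had 0.354 (0.291–0.428) and 0.364 (0.321–0.413). Agt, the angiotensin precursor, was the lowest of the ranked genes at 16.6 against 82.6 CPM (ratio 0.202, 0.153–0.261). Of the list of smooth muscle markers, 2 genes had enough UMIs and 0 were at most 0.5 times as high, with a median ratio of 0.970. Markers of vFB3 cells moved with Acta2. Their 5 genes summed to 86.2 CPM in the members, 283 CPM in YAP-target-low, IEG-low cells, 151 CPM in YAP-target-high, IEG-high cells and 332 CPM in YAP-target-high, IEG-low cells, with Fhl2 the most abundant. Mmp10, the matrix protease that marks vFB3, was at 5.96 against 50.7 CPM. When cells with a UMI of Mmp10, Itga8, P2rx1 or Foxl1 were left out, the number of lower genes went from 19 of 5744 (0.331%) to 7 of 5275 (0.133%). The ratio of Acta2 went from 0.307 to 0.561. Foxl1 is a marker of FB5 and not of vFB3, so the 2 types were filtered together. Acta2 was higher still in the muscle and mural (3618 CPM) and vFB3 (2222 CPM) gates.

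Within YAP-target-low villus fibroblasts the levels were followed over the sum of Fos, Fosb and Egr1, in cells with a sum under 5 (416 cells), 5 to 15 (126), 15 to 30 (109), 30 to 60 (156) and 60 or more (142), of which the last 3 classes are the members. Cxcl10 was at 10.8, 62.2, 102, 176 and 266 CPM in this order. Adamts4 was at 25.2, 83.8, 155, 243 and 288 CPM. Both genes thus stood higher in each class than in the one below it, with a flatter last step for Adamts4. Atf3 was at 3.78, 16.6, 38.0, 73.4 and 214 CPM, and Junb at 182, 794, 1109, 1551 and 2248 CPM. The limit of 15 fell on a continuous slope for these genes and not at a gap. Ccl11 went the other way, at 1953, 1187, 966, 947 and 864 CPM. Crim1, a YAP/TAZ target, lay between 28.5 and 46.1 CPM in all 5 classes. Has1 peaked in the class of 30 to 60 at 81.0 CPM, above 43.2 CPM in the highest class.

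**Figure D3:**
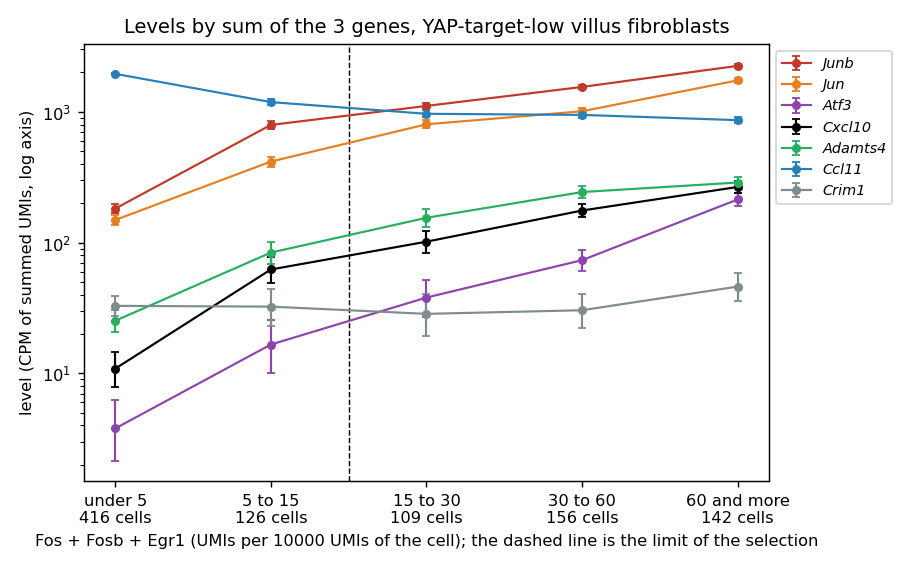
Level of 7 genes outside the selection in YAP-target-low villus fibroblasts, by the sum of Fos, Fosb and Egr1 in UMIs per 10000 UMIs (x axis, with the number of cells), in CPM of summed UMIs on a log axis with exact 95% intervals of counting error. Cxcl10 goes from 10.8 to 266 CPM and Ccl11 from 1953 to 864 CPM, while Crim1 stays between 28.5 and 46.1 CPM; the dashed line is the limit at 15.

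The members were next set beside YAP-target-high, IEG-high cells, which share the IEG limit and differ by Vegfc and Amotl2. Of 6550 genes, 21 (0.321%) were at least 2-fold higher and 88 (1.34%) at most 0.5 times as high in the members, with a median ratio of 0.988. Here the limit on Vegfc and Amotl2 divided the cells, and the counts are again a description. The counts were 4 (0.0973%) and 41 (0.998%) when every cell was thinned to 5000 UMIs before the selection, which also changed the members (496 cells) and the genes with enough UMIs (4109), and 20 (0.359%) and 75 (1.35%) in cells with 8000 to 14000 UMIs. None of the 25 immediate early genes that entered differed 2-fold here, and their median ratio was 1.12. The name YAP-target-low rested on 2 genes, so the other targets were counted. Of 16 further YAP/TAZ target genes with enough UMIs, 4 were at most 0.5 times as high, 0 were 2-fold higher, and the median ratio was 0.747. Crim1, which binds BMPs, was at 35.3 CPM (29.7–41.6) in the members, 32.7 CPM in YAP-target-low, IEG-low cells and 115 CPM in YAP-target-high, IEG-high cells (ratio 0.306, 0.254–0.366), so both YAP-target-low sets lay together. Ctgf, a matricellular protein and the best known target with Cyr61, was at 18.1, 53.4, 83.5 and 79.1 CPM (ratio 0.217, 0.168–0.278), and Myof at 11.7 against 25.8 CPM in the YAP-target-high, IEG-high cells (ratio 0.452, 0.321–0.626). The members therefore had the lowest Ctgf of the 4 sets. Axl, Gadd45a, Foxf2 and Tgfb2 had ratios from 0.886 to 1.17, so low levels did not extend to all listed targets.

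Cyr61 was the 1 gene that was at least 2-fold higher on the first comparison and at most 0.5 times as high on the second. It stood at 364 CPM (346–383) in the members, 131 CPM (122–142) in YAP-target-low, IEG-low cells, 875 CPM (853–897) in YAP-target-high, IEG-high cells and 198 CPM (190.1–207) in YAP-target-high, IEG-low cells. Cyr61 is both a YAP/TAZ target and an immediate early gene. The ratio of IEG-high to IEG-low cells was 2.77 (2.53–3.04) among YAP-target-low and 4.41 (4.20–4.63) among YAP-target-high cells. The members thus held more Cyr61 than YAP-target-high cells with low IEG, although they were selected as low in YAP targets. The difference between the 2 ratios was not tested, as there is 1 library.

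Of 10 measured genes of the Hippo pathway itself, 0 were 2-fold higher or lower, with a median ratio of 1.06. As 0.321% and 1.34% of all genes passed in the 2 directions, a count of 0 of 10 is near the background and says little about them. Yap1 was at 43.5 against 47.3 CPM (ratio 0.919, 0.761–1.11) and Wwtr1, which encodes TAZ, at 160.0 against 119.6 CPM (ratio 1.34, 1.21–1.48). The lowest ratio belonged to Tead1, the DNA-binding partner, at 61.1, 67.5, 120.4 and 125 CPM (ratio 0.508, 0.439–0.585). Lats2, both a pathway kinase and a YAP/TAZ target, was at 40.0 against 71.5 CPM (ratio 0.560, 0.466–0.670). Among secreted factors that the study followed, Vegfa was at 16.2 against 12.7 CPM (ratio 1.27, 0.911–1.77), the neurotrophin Bdnf at 1.74 against 24.6 CPM and Ccbe1, which serves the maturation of VEGF-C, at 9.94 against 21.9 CPM. Vegfa, Bdnf and Ccbe1 all had too few UMIs to enter the counts. Of the 9 listed secreted factors 1 entered, with a ratio of 0.998.

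**Figure D4:**
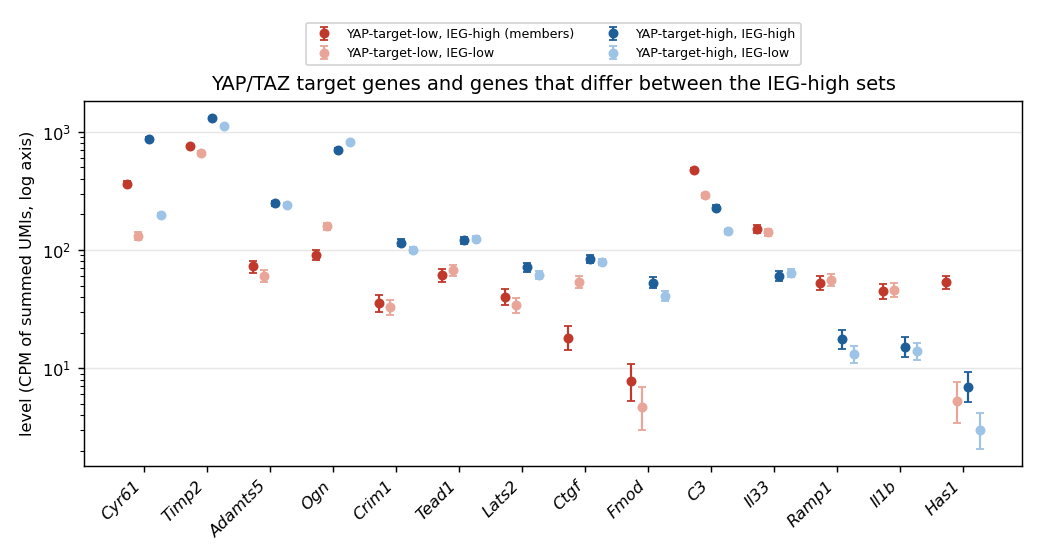
Level of 14 genes (x axis) in the 4 sets of villus fibroblasts, in CPM of summed UMIs on a log axis, with exact 95% intervals of counting error. The YAP-target-low sets lie together below the YAP-target-high sets for Crim1, Tead1, Lats2, Adamts5 and Ogn, and above them for Il33, Ramp1 and Il1b; Cyr61 and Has1 also differ with the IEG sum.

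Beyond the listed targets, the 2 lowest ratios of this comparison belonged to small leucine-rich proteoglycans of the matrix. Ogn (osteoglycin) was at 91.0 CPM (81.9–101) in the members against 159, 709 and 827 CPM (ratio 0.128, 0.115–0.143), and Fmod (fibromodulin) at 7.70, 4.64, 53.0 and 40.6 CPM (ratio 0.145, 0.0973–0.210). Adamts5, a relative of Adamts4 with overlapping substrates, was at 72.6 against 248 CPM (ratio 0.292, 0.257–0.331), whereas Adamts4 was at 236 against 175 CPM (ratio 1.34, 1.23–1.46). Timp2 and Timp3, inhibitors of metalloproteases, had ratios of 0.580 (0.556–0.604) and 0.603 (0.557–0.652). Tslp, a cytokine of barrier tissues, was the 1 lower cytokine at 28.3 against 59.5 CPM (ratio 0.477, 0.384–0.587). Also among the 10 lowest were the carboxypeptidase Cpz (0.203, 0.128–0.311) and the membrane protein Basp1 (0.230, 0.185–0.284). Of the 17 collagen and matrix genes 0 passed 2-fold, near the background of 0.321% higher and 1.34% lower genes, with Fn1 (fibronectin) lowest at 467 against 882 CPM (ratio 0.529, 0.503–0.557) and Fbln1 highest at 1.68 (1.63–1.73).

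The 21 higher genes included 2 interleukins and a Wnt ligand. Il33, an alarmin released from damaged cells, was at 151 CPM (139–163) in the members against 141, 60.1 and 63.8 CPM (ratio 2.51, 2.21–2.84), with UMIs in 59.0% of members. Il1b, an inflammatory cytokine known mainly from myeloid cells, was at 44.7, 45.8, 15.1 and 13.9 CPM (ratio 2.97, 2.32–3.80). The summed immune markers were at 35.5, 46.2, 43.3 and 50.7 CPM in the same order, and the source of the Il1b UMIs was not tested. Ramp1, a subunit of the CGRP receptor, was at 52.7, 55.3, 17.6 and 13.1 CPM (ratio 2.996, 2.39–3.77). For these 3 genes both YAP-target-low sets lay above both YAP-target-high sets. The ratio of the members to YAP-target-low, IEG-low cells was above 1 among the M and below 1 among the F columns of the matrix for Ramp1, at 1.42 (1.09–1.87) and 0.680 (0.518–0.885), and for Il1b, at 1.27 (0.973–1.66) and 0.663 (0.475–0.914). Wnt4 was at 36.8 against 17.0 CPM (ratio 2.16, 1.69–2.77) but at 68.5 CPM in YAP-target-low, IEG-low cells, and Rspo3, a Wnt amplifier of the crypt niche, at 74.3 against 45.8 CPM (ratio 1.62, 1.38–1.90). Of 15 measured niche signals 1, Wnt4, was 2-fold higher and 0 were lower, beside 0.321% and 1.34% of all genes. Sfrp1, a secreted Wnt inhibitor, stood at 2720.1 against 1489.9 CPM (ratio 1.83, 1.78–1.88) and Bmp4 at 459 against 707 CPM (ratio 0.650, 0.616–0.685).

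Several of these genes were also high in the FB4 gate. C3, the central complement protein, which was picked after its values were seen, was at 477 CPM in the members, 228 CPM in YAP-target-high, IEG-high cells (ratio 2.09, 1.96–2.24) and 1347 CPM in FB4. Mmp3, a stromelysin, was at 88.0 CPM in the members and 161 CPM in FB4, and its ratio of members to YAP-target-high, IEG-high cells was 3.66 (3.05–4.42). Has1 was at 53.2 CPM in the members, 6.98 CPM in YAP-target-high, IEG-high cells (ratio 7.62, 5.58–10.6) and 62.7 CPM in FB4, and Il33 was at 256 CPM in FB4. Leaving out every cell with a UMI of an FB4 marker kept 190 members and left 3709 genes with enough UMIs. Of these, 11 (0.297%) were higher and 52 (1.40%) lower, where it had been 0.321% and 1.34% of 6550. The ratio of Has1 was then 9.48 and that of Mmp3 7.13. Ramp1 was instead highest in the FB5 gate (251 CPM), and Il1b was at 11.7 CPM in FB4 and 6.07 CPM in FB5.

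Cxcl10 and Has1 were the 2 genes at least 2-fold higher in both comparisons. For Cxcl10 the ratio to YAP-target-high, IEG-high cells was 2.10 (1.89–2.33), which stood close to the limit. It was 1.55 with members and compared cells chosen on no UMI of Vegfc or Amotl2, and 1.45 when every cell was thinned to 5000 UMIs before the selection, so it did not pass 2-fold under either of these alternatives. For Has1 it was 2.90 after thinning. In YAP-target-high cells the step with IEG was 5.55 (4.70–6.59) for Cxcl10 and 5.28 (4.69–5.94) for Adamts4, beside 8.22 and 6.06 in YAP-target-low cells. The median step of the immediate early list was 3.92 over the 22 genes with enough UMIs among YAP-target-high cells, beside 4.65 over 20 genes among YAP-target-low cells. For NF-κB feedback genes the medians were 2.91 and 2.997.

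**Figure D5:**
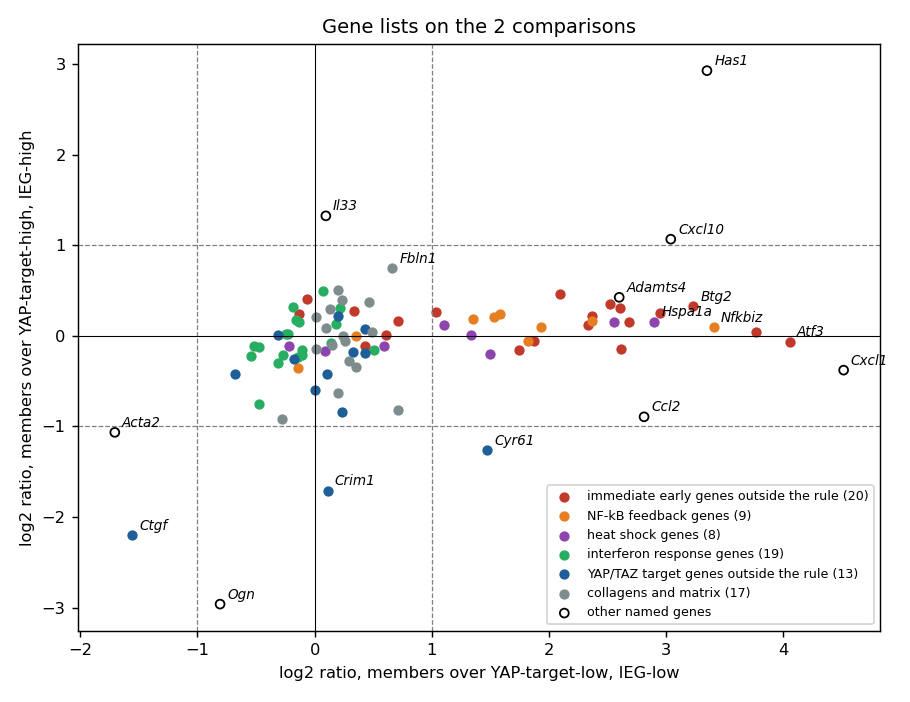
Log2 ratio of members over YAP-target-low, IEG-low cells (x axis) and over YAP-target-high, IEG-high cells (y axis) for genes of 6 lists and 8 other named genes, 1 point a gene, with dashed lines at 2-fold. Immediate early and NF-κB feedback genes spread to the right along the horizontal zero line, Cxcl10 and Has1 lie above the upper dashed line on the right, Cyr61 lies below the lower dashed line on the right, and the collagens lie within the dashed lines.

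Among the members, the genes outside the rule were spread unevenly over cells. Junb had UMIs in all 407 members, with a median of 14.97 and a range of 1.91 to 81.6 UMIs per 10000. Adamts4 had UMIs in 302 members (74.2%), and the 41 cells with the most held 32.9% of its UMIs. The 755 UMIs of Cxcl10 lay in 124 members (30.5%), and its top 41 cells held 73.5%. Its level of 188 CPM is thus an average over few cells with many UMIs and many cells without one, and a cell without a UMI at this depth may still express the gene. Has1 was more uneven still, with UMIs in 57 members (14.0%) and 92.5% in the top 41, and so was Mmp3, with UMIs in 53 members and 96.6% in the top 41. Thinned to 5000 UMIs a cell, which left out 12 members, the share of members with a UMI was 24.3% (20.2–28.8) for Cxcl10. At the same depth it was 6.23% in YAP-target-low, IEG-low cells, 19.7% in YAP-target-high, IEG-high cells and 3.60% in YAP-target-high, IEG-low cells. In the other gates it was 11.2% in FB4, 4.17% in FB5, 8.42% in the muscle and mural gate and 9.64% in vFB3. For Adamts4 these shares were 59.0% in the members, 16.0% in YAP-target-low, IEG-low cells and 47.1% in YAP-target-high, IEG-high cells.

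Members with a UMI of Cxcl10 were set beside the 283 without. They had a median of 10336 against 9876 UMIs and a median IEG sum of 58.7 against 42.8 per 10000, so they were deeper and higher in IEG, and what this adds to the ratios was not tested. Junb had a ratio of 1.25 (1.19–1.32) and Atf3 of 1.504 (1.24–1.82). Ratios of 7 genes that NF-κB can activate ran from 1.16 for Icam1 and 1.24 (1.16–1.34) for Nfkbia to 1.86 (1.44–2.39) for Nfkbiz, with Ccl2 at 1.31, Irf1 at 1.39, Cxcl1 at 1.64 and Il6 at 1.72 in between. For the interferon response genes Isg15, Gbp2 and Ifit3 the ratios were 0.974 (0.685–1.37), 1.05 (0.738–1.48) and 0.690 (0.395–1.16). The 57 members with Has1 differed in another way. Beside the 350 without, Junb had a ratio of 0.921 (0.859–0.985), Lbp of 8.14 (3.42–20.3) and Scara5 of 6.78 (3.34–14.0). Both of the latter are FB4 markers, with only 15 and 20 UMIs in the Has1 cells. The more abundant FB4 marker Grem1 went the other way, at a ratio of 0.590 (0.391–0.862). Ackr4 stood at 0.580, Cilp at 1.27 and Pcolce2 at 1.52, each with an interval that covered both directions. The FB4 markers thus did not rise together in the Has1 cells. Mfap5, a microfibril gene picked after its values were seen, was at 232 against 73.0 CPM and at 698 CPM in the FB4 gate. Of the Has1 cells 64.9% held an FB4 marker, against 51.4% of the others. Without cells that held a UMI of an FB4 marker, the ratio of Has1 was 9.48 to YAP-target-high and 17.4 to IEG-low cells.

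The columns of the matrix carry the marks M and F. Per the methods, the authors split the cells by the presence of Xist, the RNA of the inactive X chromosome in females, so the finding of a UMI of Xist in all 2125 F cells and 0 of the 1983 M cells shows how the marks were made and is no result. A female cell in which no Xist was captured would be marked M. The members made up 18.8% (16.7–21.0) of the M and 12.6% (10.8–14.6) of the F villus fibroblasts. As sex and animal cannot be told apart here, no more is read from it. Among M cells the ratio of Cxcl10 was 6.27 to IEG-low and 1.99 to YAP-target-high cells, and among F cells it was 11.5 and 2.25. For Adamts4 the ratio to IEG-low cells was 5.41 among M and 6.84 among F cells. Il1b had ratios to YAP-target-high, IEG-high cells of 4.502 and 1.78, and Mmp3 of 2.23 and 6.33, so both ratios differed more than 2-fold between the marks. Of the 120 genes higher and the 19 lower than in IEG-low cells, 98 and 10 passed 2-fold under both marks, and 120 and 18 had the same direction under both. Of the 21 genes higher and the 88 lower than in YAP-target-high cells, 11 and 66 passed under both, and 21 and 88 had the same direction. As the genes were called on these same M and F cells together, such shares are partly built in. RNA free in the droplets was bounded by the Y-linked UMIs in the 2004 cells with at least 5 Xist UMIs, at 4.14% of a gene's level in the library. That is 2.55 CPM for Cxcl10 and 3.80 CPM for Adamts4, below their levels in every set of villus fibroblasts.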

How the data were processed

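Sorted tdTomato+ stromal cells were profiled by the authors with the 10x 3′ kit (v3). The processing notes name Cell Ranger 3.0.2, mm10 and Seurat 3.0.1, and the methods give another version of Seurat. Per the methods, cells with 1000 to 6000 genes and at most 7% mitochondrial UMIs were kept, genes in at least 3 cells were kept, and immune and endothelial clusters were removed. The deposited matrix of the KO library of 1 week holds 18619 genes in 4108 cells as the natural log of 1 plus UMIs per 10000. The test design assumed UMI counts, which were recovered from these values. Exponentiated values minus 1, divided by the smallest such value of each cell, were whole within 0.001 for 100.00% of 13789523 nonzero values and gave 46054627 UMIs, and these recovered counts were used. The other 3 libraries were not used here, and 2 listed genes are not reported here.

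The members, gene lists and markers were chosen with earlier results of these data known. UMIs were summed per set of cells, and CPM, ratios and shares were given exact 95% Poisson, conditional binomial and Clopper-Pearson intervals (Python 3.11.15, scipy 1.17.1, numpy 2.4.6, pandas 2.3.3), which cover counting error only. A gene entered a comparison with at least 200 UMIs over both sets and counted at a 2-fold difference. Named genes were all genes of the lists and, among genes with UMIs in at least 20% of the cells of the higher set, the 20 highest and 10 lowest against IEG-low cells and the 10 highest and 10 lowest against YAP-target-high cells. Shares of cells were also taken after thinning to 5000 UMIs. The authors excluded doublets at the sort, and no caller was run. In all, 116 cells, of them 10 members, held both Xist and Y-linked UMIs. Leaving them out was 1 of the alternatives, as was leaving out the 5% of cells with the most UMIs. Promoters were read from the RefSeq table of GRCm38.p6. The ratio and interval code was tested on simulated data.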

Additional observations from a re-analysis of the deposited data

How the results depend on the processing

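Alternatives were the limits of the selection, the depth of the cells, the marker gate, the M and F columns, the mitochondrial limit, doublet filters, the way of averaging and the UMI minimum of a gene, and the 2 that left out cells with FB4 markers or with Mmp10, Itga8, P2rx1 or Foxl1 were chosen after seeing the data. Of 442 values of the 28 ratios past 2-fold, 426 stayed past it in the same direction and 16 did not. Among the 16 were Cxcl10 over YAP-target-high cells under 5 alternatives (1.45 to 1.99), and Il33 (1.81) and C3 (1.63) after thinning. Il1b among F columns (1.78) and Acta2 without cells with Mmp10, Itga8, P2rx1 or Foxl1 (0.561) were also among them. A strict gate with no UMI of any excluded marker kept 7 members, as Rgs5 was in nearly all, and gave 3 higher and 9 lower of 257 genes against IEG-low cells, 2 and 2 of 95 against YAP-target-high cells, 1 immediate early gene, Cxcl10 at 68.6 CPM and a ratio of 1.11 to IEG-low cells in place of 8.22, and the 1 reversal, Ccl2 at a ratio of 0. Fewer cells also remained with M columns (247), F columns (160), a mitochondrial limit of 5% (243) or no FB4 marker (190). Fewer genes were tested under most of these, so shares of the genes tested follow in parentheses. The 120 genes (2.09%) higher than in IEG-low cells numbered 78 (1.83%) after thinning, 74 (2.05%) in M, 60 (1.93%) in F, 70 (2.01%) under 5% mitochondrial UMIs, and 258 (2.60%) and 39 (2.93%) with a minimum of 50 and 1000 UMIs. The 19 lower genes (0.331%) numbered 30 (0.420%) with a Vegfc and Amotl2 limit of 2, 10 (0.321%) in F and 5 (0.144%) under 5% mitochondrial UMIs. They numbered 71 (0.717%) and 6 (0.451%) with the 2 minimums, and 7 (0.133%) without cells with Mmp10, Itga8, P2rx1 or Foxl1. The 21 genes (0.321%) higher than in YAP-target-high cells numbered 11 (0.168%) with no UMI of Vegfc or Amotl2, 37 (0.565%) with a limit of 2, 65 (1.21%) with a gap between the sets, 4 (0.0973%) after thinning, 8 (0.186%) in M, 13 (0.198%) as a mean over cells, 70 (0.680%) and 5 (0.295%) with the 2 minimums and 11 (0.297%) without FB4 markers. The 88 lower genes (1.34%) numbered 41 (0.998%) after thinning, 178 (1.73%) and 30 (1.77%) with the 2 minimums and 52 (1.40%) without FB4 markers. Cxcl10 in the members was at 171 and 218 CPM with IEG limits of 10 and 30, 169 CPM with no UMI of Vegfc or Amotl2, 164 CPM with a limit of 2, 215 CPM in cells with 8000 to 14000 UMIs, 143 CPM after thinning, 172 CPM in M and 208 CPM in F columns. Adamts4 was at 264 CPM with the limit of 30 and at 219 CPM in F columns. Other causes were not tested. No paired analysis was possible because 1 library was analysed.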

Other observations

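The comparisons held further genes that were not described above. Of those given here, Adh1 and Pgf were named by the ranking, and Ces1d, Sgk1, Tnfsf9 and Malat1 were picked after their values were seen. Ces1d, a carboxylesterase, was at 731, 348, 382 and 179 CPM in the members, YAP-target-low IEG-low, YAP-target-high IEG-high and YAP-target-high IEG-low cells, so it was highest in the members and lowest in the set that differs from them by both limits. Its ratio was 2.10 (1.98–2.23) to IEG-low and 1.91 (1.82–2.02) to YAP-target-high cells, and it was at 288 CPM in FB4 and 159 CPM in FB5. Pgf, a growth factor of the VEGF family, was at 60.1, 49.9, 27.4 and 23.4 CPM, with a ratio to YAP-target-high, IEG-high cells of 2.20 (1.81–2.67). Adh1, an alcohol dehydrogenase that acts on retinol, was at 115 against 50.9 CPM (ratio 2.25, 1.96–2.59) and at 112 CPM in FB4. The kinase gene Sgk1 was at 54.7, 13.9, 88.5 and 32.4 CPM, and Tnfsf9, a ligand of T cells, at 26.6, 2.71, 19.8 and 2.71 CPM. The nuclear RNA Malat1 was at 31421 CPM in the members and 31883, 26636 and 24931 CPM in the other sets.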
